A study of Mus musculus with 16 samples.

Results

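Genes of the secretory pathway and of vesicle traffic were followed in mouse liver: 108 genes of the 6734 that the array names with a single symbol. A gene was taken by the start of its symbol (Sec, Rab, Arf or Srp followed by a digit, Cop followed by a, b, e, g or z, and Sar1, Tmed, Ssr, Stx, Vamp, Snx or Vps). The rule itself uses no measured value, but it was chosen with earlier results of these data known. The 108 genes were read by 122 of the 9596 probes, and 106 of them had values in at least 6 of 8 mice and were tested; Srp19, measured in 5 mice, and Rab40b, measured in 4 mice, were not tested. A further 6 probes that carry several symbols, one of them a name of this kind, were not used.

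All animals were female APOE3-Leiden (E3L) mice, a transgenic line that expresses a human apolipoprotein E variant and has plasma lipids that react strongly to diet. Both groups ate a Western-type diet (diet W) with 15 g fat and 0.25 g cholesterol per 100 g for 4 weeks, starting at 10 weeks of age. The control group (7 mice) received this diet alone, and the treated group (8 mice) received it with 0.04% cafestol and 0.02% kahweol by weight, lipids of unfiltered coffee that raise serum cholesterol in people. Poly(A) RNA of each treated liver, labelled with Cy5, was set against control-diet liver RNA, labelled with Cy3, on 2 cDNA arrays, which gives 16 arrays. The dyes were swapped on 0 arrays, so a dye effect that is specific to a gene and an effect of the diet cannot be told apart. The labels name no single control mouse, so the spread of the control mice is not part of any test, and no label says whether the treated mice came from separate litters or cages. In whole liver, fewer cells of a type and less RNA per cell cannot be told apart either.

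Every value below is a deposited log2 ratio of the 2 channels, or the mean of such ratios, never a level. The sources used here do not give which channel is the numerator. Signs are therefore printed as deposited: Gstm1 (-2.48 ± 0.23, SD, n = 8 mice), which these lipids are known to induce in rodent liver, marks the negative side, and Cyp7a1 (1.56 ± 0.38), which they are known to lower, marks the positive side. "Called" means an adjusted p under 0.05 in limma (two-sided, mean of 8 mice against 0, Benjamini-Hochberg over all 8348 genes and unnamed probes tested).

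A protein that is to be secreted or built into a membrane enters the endoplasmic reticulum (ER) through the Sec61 channel, to which the signal recognition particle brings the ribosome. Coated vesicles then carry it onward: COPII coats bud from the ER towards the Golgi, and COPI coats return material to the ER. Arf and Rab GTPases tell membranes when to bud, move and tether, SNARE proteins fuse them, and sorting nexins and Vps proteins sort cargo in endosomes. Hepatocytes use this route heavily, since they secrete most plasma proteins and lipoproteins.

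Of the 106 tested members, 50 (47.2%) were called, beside 43.4% of all 8348 features. Below 0 lay 37 of the 50 (34.9% of the members, beside 25.4% of all features), and above 0 lay 13 (12.3%, beside 18.0%). Over the 6355 named genes tested alone, the shares were 44.4% called, 27.9% negative and 16.4% positive. With each array centred on its mean in place of its median, 49 were called (46.2%, beside 43.2% of all features). Of these, 31 were negative (29.2% of the members, beside 21.9% of all features). The median over the members was -0.026, beside -0.017 over all features and -0.026 over the named genes. The differences were small: the size of the largest was 1.34-fold, 10 members passed 1.2-fold (9.43%, beside 8.29% of all features), and 18 called members lay under 1.1-fold, which is less than the smallest step of a single array value (0.14, a ratio of 1.1). The median SD between mice was 0.10 for the members and 0.11 for all features tested, and the median SD between the 2 arrays of a mouse was 0.067. In 18 of the 50 called members every measured mouse had the same sign. The count of 50 fell to 23 when the control RNA was treated as a mix of 7 animals with the same spread as the treated group (21.7% of the members, beside 21.7% of all features) and to 0 against a minimum fold of 1.2 (limma's treat; 1.47% of all features were called, and 4 members at an unadjusted p under 0.05). Leaving out each mouse in turn gave 37 to 48 called members (34.9% to 44.9%, beside 36.1% to 44.2% of all features), and 36 of the 50 kept the call in all 8 of these fits.

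Mice and arrays were not alike. The arrays had values for 8094 to 9314 probes each. The mouse identifiers start with SY (4 mice) or TP (4 mice), and the array titles hold a code, c3z or bl7, that nearly follows them: all TP mice were on bl7 arrays and the SY mice on c3z arrays, except that SY518Z was on 1 array of each. Mean absolute log2 ratios over all probes ran from 0.11 to 0.16 in SY mice and from 0.15 to 0.19 in TP mice. Mouse TP4215 stood farthest from the others, with a median correlation across the features tested of 0.38 with SY mice and 0.62 with other TP mice; without it, 44 members were called (41.5%, beside 42.5% of all features). In SY mice alone 27 members were called (25.5%, beside 24.9%), in TP mice alone 35 (32.7%, beside 37.4%; negative, 21.5% beside 21.6%), and with the identifier series as a random block 33 (31.1%, beside 30.5%). On c3z arrays alone the count was 25 (23.6%, beside 25.3%) and on bl7 arrays alone 47 (43.9%, beside 45.5%).

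The genes of ER import held the lowest and the highest mean ratio of all tested members. Of 11 tested genes, 5 were called negative (45.5%, beside 25.4% of all features), 2 positive (18.2%, beside 18.0%) and 4 were not called, and the median was -0.043. All 3 kinds of subunit of the Sec61 channel were among the called genes, but the 2 alpha subunits lay on opposite sides. Sec61a1 (Entrez 53421), the main alpha subunit that forms the pore, ran from -0.63 to -0.20 over the 8 mice, with a median of -0.40. All mice were negative, and the 2 lowest values were those of TP4168 and TP4205. The mean was -0.41 ± 0.16, a 1.33-fold difference (limma, adjusted p = 7.24e-05). Sec61a2 (Entrez 57743), its paralog, ran from 0.069 to 0.85 with a median of 0.44. All mice were positive, and the 4 TP mice (0.54 to 0.85) lay above the 4 SY mice (0.069 to 0.34) without overlap. Its mean was 0.42 ± 0.27, a 1.34-fold difference (adjusted p = 0.00117). A cDNA probe of one paralog may also bind transcripts of the other, and this was not tested.

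The small channel subunits lay on the side of Sec61a1. Sec61b, the beta subunit, ran from -0.58 to -0.069 with a median of -0.20, and Sec61g, the gamma subunit, from -0.49 to -0.069 with a median of -0.14. Both were negative in all 8 mice, and in both the lowest mouse was a TP mouse. Their means were -0.28 ± 0.17 (adjusted p = 0.00136) and -0.20 ± 0.14 (adjusted p = 0.00285). The translocon-associated protein complex, which sits beside the channel and helps chosen chains enter, was read through Ssr1 and Ssr4. Ssr1 (Entrez 107513), its alpha subunit, ran from -0.58 in TP4205 to -0.14 in SY521RL with a median of -0.38, so that every mouse was negative. Its mean was -0.34 ± 0.14, a 1.27-fold difference (adjusted p = 0.000109). Ssr4, the delta subunit, ran from -0.43 to 0 (mean -0.15 ± 0.15, adjusted p = 0.0276), and its call was lost without TP4168, TP4205 or TP4163.

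Sec62 and Sec63, partners of the channel that serve chains imported after synthesis, lay on the other side. Sec62 was positive in 7 of 8 mice, from -0.069 to 0.20 with a median of 0.14 (mean 0.13 ± 0.091, adjusted p = 0.0103). Sec63 ran from -0.0085 to 0.22 (mean 0.084 ± 0.081, adjusted p = 0.0524), and its 2 probes differed: the mean of one was -0.0086 and that of the other 0.22. The signal recognition particle was represented by Srp9 (-0.043 ± 0.17) and Srp14 (0.035 ± 0.14), neither of which was called. Sec11c, a catalytic subunit of the signal peptidase that trims imported chains, was at -0.0093 ± 0.11 (adjusted p = 0.858). Of these 4 genes that were not called, Sec63 binds the channel and the others act in targeting or trimming.

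**Figure D1:**
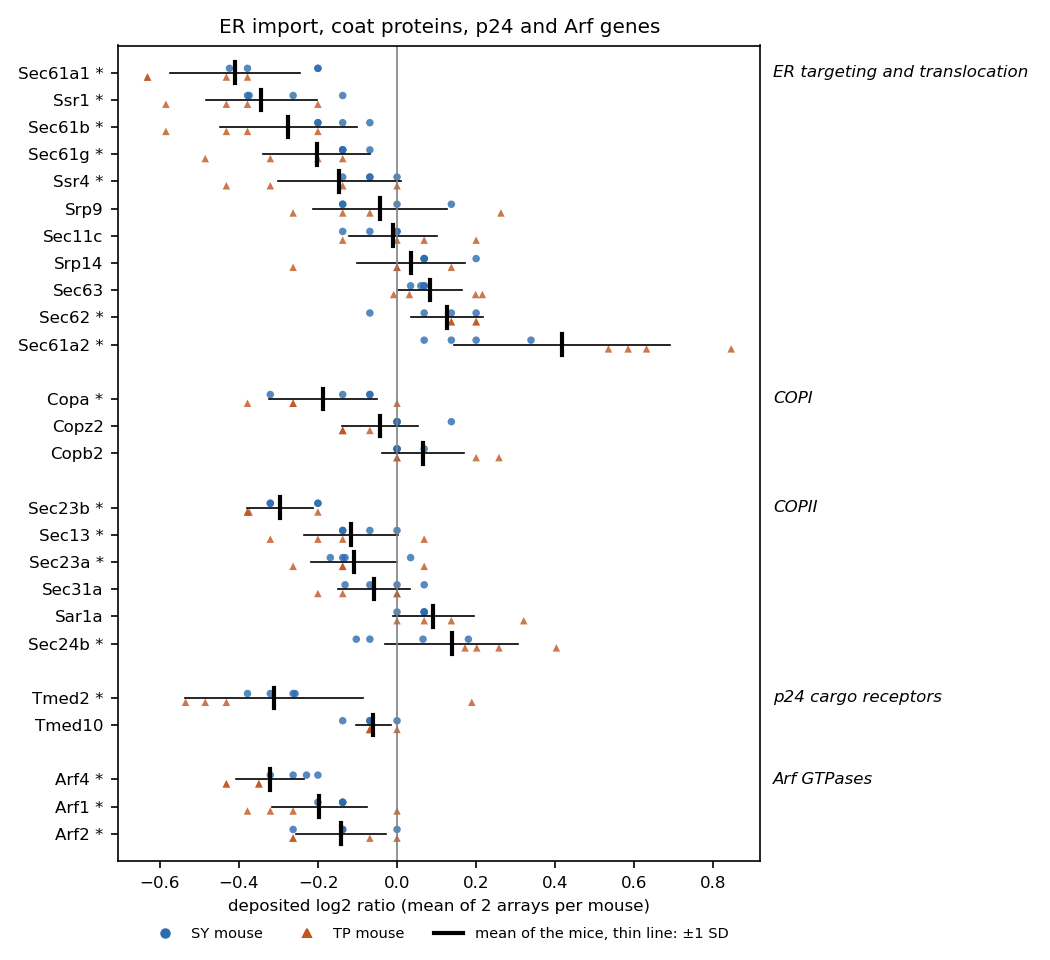
Deposited log2 ratios (x axis) of the tested genes of ER import, COPI, COPII, p24 and Arf. Each circle is 1 of 4 SY mice and each triangle 1 of 4 TP mice (mean of 2 arrays), the thick bar is the mean of the mice, the thin line ±1 SD, and an asterisk marks an adjusted p under 0.05. Sec61a1 and Ssr1 are negative in all mice, Sec61a2 is positive in all mice with the TP mice above the SY mice, and Tmed2 has 1 mouse at 0.19 and the others at -0.26 or lower.

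Because the ER import genes are known targets of the unfolded protein response, the promoter windows of RefSeq (GRCm38.p6, 250 bases before to 50 after a start site) were searched on both strands for the letters of its elements. There was a window for 86 of the 108 members and for 27025 genes in all, whether or not they were on the array. The shares over the genes of the array alone were not counted. The ER stress element (CCAAT, 9 bases of any kind, CCACG) was in 0 of the 86 and in 37 of all genes (0.137%), and element II (ATTGG, 1 base, CCACG) in 0 of the 86 and in 12 of all genes (0.0444%). The short half-site CCACG, which both elements and the opposite strand of TGACGTGG contain, was in 49 of the 86 (57.0%) and in 35.5% of all genes. Among the 6 called ER import genes with a window it was in 2, Ssr1 and Sec61a2 (33.3%, beside 35.5% of all genes). Ssr1 is shown as the gene of this group farthest below 0 that had a window. The sequence is the 250 bases before its start, chr13:37994209-37994458 on the minus strand, with CCACG in capitals at positions -73 and -26 from the start site:
Ssr1: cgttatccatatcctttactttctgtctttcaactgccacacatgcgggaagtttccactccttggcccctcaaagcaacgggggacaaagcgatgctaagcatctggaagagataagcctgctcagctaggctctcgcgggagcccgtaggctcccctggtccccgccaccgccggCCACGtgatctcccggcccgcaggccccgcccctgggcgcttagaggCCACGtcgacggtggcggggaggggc

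Coat proteins were called in both directions. Of 9 tested COPI and COPII genes, 4 were negative, 1 was positive and 4 were not called, with a median of -0.059. The shares were 55.6% called, 44.4% negative and 11.1% positive, beside 43.4%, 25.4% and 18.0% of all features. In COPII, Sec23b (Entrez 27054), a subunit of the inner coat that binds Sar1, ran from -0.38 to -0.20 with a median of -0.32. No mouse was near 0, and the mean was -0.30 ± 0.083, a 1.23-fold difference (adjusted p = 3.52e-05). Its paralog Sec23a (-0.11 ± 0.11, adjusted p = 0.0339) and the outer-coat subunit Sec13 (-0.12 ± 0.12, adjusted p = 0.0331) were called with smaller means. In the fits that left out 1 mouse, Sec23a kept its call only without SY521RL or TP4215, and Sec13 only without SY521RL, SY518Z or TP4215. Sec24b, the subunit that picks cargo, was the positive call (0.14 ± 0.17, adjusted p = 0.045), but its 2 probes had means of -0.043 and 0.32, and on c3z arrays alone its mean was -0.027. It kept the call only without SY524ROB+L or SY522ROB. Sar1a, the GTPase that starts the coat, was at 0.092 ± 0.10 (adjusted p = 0.0598) and Sec31a at -0.059 ± 0.091 (adjusted p = 0.183). In COPI, Copa, the alpha coatomer subunit, ran from -0.38 to 0 with a median of -0.20 and was negative in 7 of 8 mice (mean -0.19 ± 0.14, adjusted p = 0.00481). Copb2 (0.066 ± 0.10) and Copz2 (-0.043 ± 0.097) were not called.

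Of the p24 proteins, cargo receptors that cycle between ER and Golgi, Tmed2 (Entrez 56334) was called and Tmed10 was not. Tmed2 was between -0.54 and -0.26 in 7 mice and at 0.19 in TP4215. Its mean was -0.31 ± 0.23 (1.24-fold, adjusted p = 0.00252), and without TP4215 it was -0.38. Tmed10 was at -0.060 ± 0.044 (adjusted p = 0.0848). All 3 Arf GTPases were called negative (beside 25.4% of all features), with a median of -0.20. Arf4 (Entrez 11843), which acts at the Golgi and in recycling, ran from -0.43 to -0.20 with a median of -0.34. The 4 TP mice (-0.43 to -0.35) lay below the 4 SY mice (-0.32 to -0.20), though the difference was not called (adjusted p = 0.138). Its mean over all mice was -0.32 ± 0.087, a 1.25-fold difference (adjusted p = 2.42e-05). Arf1, which recruits COPI to the Golgi, ran from -0.38 to 0 with TP4215 at 0 (mean -0.20 ± 0.12, adjusted p = 0.00212). Arf2 was at -0.14 ± 0.11 (adjusted p = 0.0111).

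The core of the unfolded protein response element, TGACGTGG, was in the windows of 3 of the 86 members (3.49%), beside 193 of all 27025 genes (0.714%), on the array or not. These were Sec23a, Arf1 and Copb2, of which the first pair was called negative and Copb2 was not called. They are shown to set the match beside each ratio, as 30 bases with the match in capitals, on the strand of the gene. The match starts at position 7 after the Sec23a start (chr12:59011993-59012022, minus strand), at -84 of an Arf1 start (chr11:59228228-59228257, minus strand) and at -7 of the Copb2 start (chr9:98563713-98563742, plus strand), where it lies on the opposite strand:
Sec23a: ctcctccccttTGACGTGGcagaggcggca
Arf1: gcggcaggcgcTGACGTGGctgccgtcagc
Copb2: tcccggaagttCCACGTCAgtgggttggcc

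The same letters thus stand in promoters of members with means of -0.11, -0.20 and 0.066, and a match says nothing about binding.

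Rab GTPases, the largest group, were mostly not called: of 31 tested, 7 were negative, 3 positive and 21 not called (32.3% called, beside 43.4% of all features). Their median was 0.017, and -0.017 in TP mice alone. The negative share was 22.6%, beside 25.4% of all features. Rab14 (Entrez 68365), which works between Golgi and endosomes, ran from -0.38 to -0.14 with a median of -0.20 and was negative in all mice (mean -0.21 ± 0.091, adjusted p = 0.00041). Rab3d, a Rab of regulated secretion, ran from -0.38 to 0 with a median of -0.26 (mean -0.20 ± 0.12, adjusted p = 0.00193). Its value was 0 in SY524ROB+L and lowest in TP4215. Rab10, which serves delivery to the cell surface, was within -0.26 and -0.13 in all mice (mean -0.18 ± 0.043, adjusted p = 0.00021). Rab11a, of the recycling endosome, was within -0.32 and -0.069 (mean -0.18 ± 0.09, adjusted p = 0.00136). Rab8b (-0.14 ± 0.089), Rab4a of rapid recycling (-0.13 ± 0.10) and Rab23 (-0.093 ± 0.03) followed, with all 8 mice negative for Rab23 and 7 of 8 for the other two.

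The positive Rabs were Rab33a, Rab24 and Rab17. Rab33a (Entrez 19337) ran from 0.14 to 0.43 with a median of 0.23 and was positive in all mice (mean 0.27 ± 0.10, adjusted p = 0.000161). Rab24, a Rab linked to autophagy, ran from 0.069 to 0.26 with a median of 0.20 and was also positive in all mice (mean 0.19 ± 0.08, adjusted p = 0.000559). Rab17, a Rab of epithelial cells, was between 0 and 0.20 in 7 mice and at 0.48 in TP4215 (mean 0.15 ± 0.15, adjusted p = 0.0247). The Rab17 call was lost without TP4168 or TP4205. Well-known Rabs were among the 21 not called. Rab2a of the early secretory route was at 0.059 ± 0.12 and Rab7 of late endosomes at 0.026 ± 0.063. Rab8a was at 0.051 ± 0.087 and Rab18, found on lipid droplets, at 0.051 ± 0.11. Paralogs did not share a call in the pairs Rab11a and Rab11b (-0.034 ± 0.079), Rab8b and Rab8a, and Rab33a and Rab33b (-0.041 ± 0.13). The difference between paralogs was not tested. Rab11b is the average of 3 probes, and a probe at -0.094, on the side of Rab11a, was called when tested alone (limma, adjusted p = 0.0413). Of the Rab11 effectors, Rab11fip3 was called (0.10 ± 0.062, adjusted p = 0.0134) and Rab11fip4 was not (-0.026 ± 0.087).

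**Figure D2:**
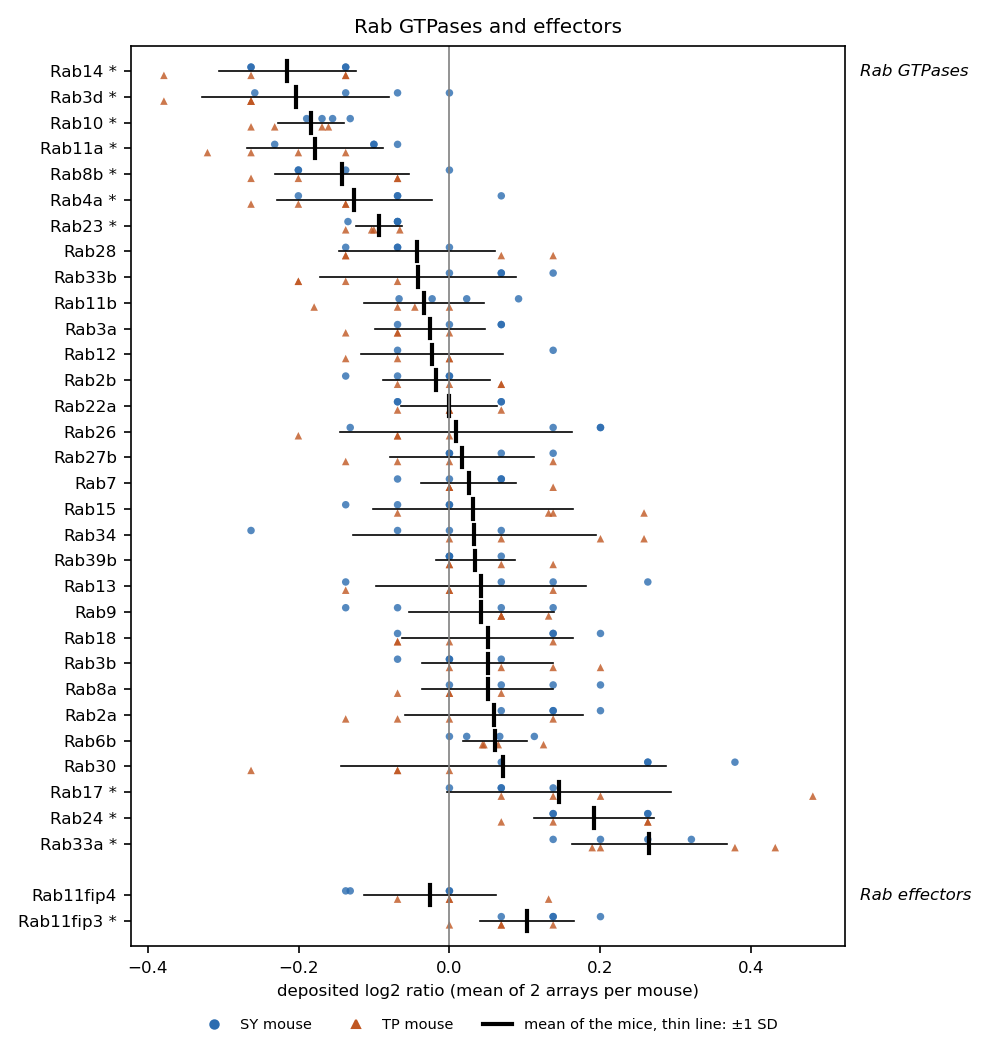
Deposited log2 ratios (x axis) of the 31 tested Rab GTPases and 2 Rab effectors, ordered by mean. Circles are SY mice, triangles TP mice, thick bars the mean of the mice, thin lines ±1 SD, and asterisks an adjusted p under 0.05. Most genes straddle 0, Rab14 is negative and Rab33a positive in all mice, and 1 TP mouse stands at 0.48 for Rab17.

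SNAREs were also mostly not called: of 18 tested, 4 were negative, 2 positive and 12 not called, with a median of -0.033. The called share was 33.3% and the negative share 22.2%, beside 43.4% and 25.4% of all features. The SNARE with the largest mean was Vamp8 (Entrez 22320), which drives fusion of endosomes and of secretory granules. It ran from 0.14 to 0.38 with a median of 0.20, positive in all mice (mean 0.25 ± 0.093, adjusted p = 0.000154). Vamp2, best known from synaptic vesicles, was between 0.14 and 0.20 in 7 mice and at 0 in SY518Z (mean 0.14 ± 0.062, adjusted p = 0.00267). Vamp7, of lysosomes and late endosomes, was negative in 7 mice and at 0.14 in TP4215 (mean -0.18 ± 0.14, adjusted p = 0.00761). Stx3, a SNARE of apical membranes, spread widely, from -0.49 in TP4215 to 0.14 in SY524ROB+L (mean -0.17 ± 0.22, adjusted p = 0.0465). Stx8 (-0.12 ± 0.13, adjusted p = 0.039) and Sec22a (-0.17 ± 0.19, adjusted p = 0.0315) were the other two negative calls. The calls of Stx3, Stx8 and Sec22a each lasted only without SY521RL, SY524ROB+L or SY522ROB, and on c3z arrays alone Sec22a was at 0. Vamp5 was not called (-0.068 ± 0.058, adjusted p = 0.0718), although each of its 2 probes was when tested alone: one at -0.26 ± 0.079 (adjusted p = 7.15e-05) and one at 0.13 ± 0.11 (adjusted p = 0.0184). Of 4 SNARE binders, Stxbp2, a partner of syntaxins in granule release, was called (-0.10 ± 0.052, adjusted p = 0.00973).

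Sorting nexins, which bind endosomal membranes by a lipid-binding domain, were called in 8 of 13 cases (61.5%, beside 43.4% of all features). Of these 6 were negative (46.2%, beside 25.4%) and 2 positive (15.4%, beside 18.0%), and the median of the 13 was -0.026. Snx9 (Entrez 66616), which shapes membranes in endocytosis, was the positive member with the smallest adjusted p. It ran from 0.26 to 0.58 with a median of 0.35, far from 0 in every mouse, with the highest value in TP4215. Its mean was 0.38 ± 0.11, a 1.30-fold difference (adjusted p = 2.12e-05). Snx24 was positive in 7 of 8 mice (0.13 ± 0.11, adjusted p = 0.0151). The negative nexins had means from -0.16 to -0.093: Snx15, negative in all mice (-0.16 ± 0.077, adjusted p = 0.00167), Snx4, a nexin of recycling and autophagy (-0.15 ± 0.091, adjusted p = 0.00383), Snx12, Snx21, Snx19 and Snx3. The calls of Snx21, Snx19 and Snx3 were lost in 4, 5 and 6 of the 8 fits that left out 1 mouse. Snx21 and Snx19 both lost it without TP4168, TP4205 or TP4163, Snx21 also without SY524ROB+L and Snx19 also without SY521RL or TP4215, and Snx3 kept it only without TP4168 or SY524ROB+L.

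Of 11 Vps genes, 5 were called negative, 1 positive and 5 not called, with a median of -0.057. The called share was 54.5% and the negative share 45.5%, beside 43.4% and 25.4% of all features. Vps25 (Entrez 28084), a subunit of the ESCRT-II complex that sorts receptors for degradation, ran from -0.38 to -0.20 with a median of -0.29, and all mice were negative. Its mean was -0.30 ± 0.062, and its adjusted p (1.59e-05) was the smallest of the 106 members. Vps51 (Entrez 68505), of the complex that tethers endosome-derived vesicles at the Golgi, ran from -0.32 to -0.14 with a median of -0.26 and was also negative in all mice (mean -0.25 ± 0.054, adjusted p = 4.22e-05). Its partner Vps54 was at 0.076 ± 0.12 (adjusted p = 0.138). Vps35, the core of the retromer that retrieves receptors from endosomes, was negative in 7 mice and at 0.14 in TP4215 (mean -0.19 ± 0.15, adjusted p = 0.00684), while the retromer subunit Vps26a was at 0.032 ± 0.13 (adjusted p = 0.56). Vps45 (-0.13 ± 0.074, adjusted p = 0.00591) and Vps11 (-0.13 ± 0.13, adjusted p = 0.0223) were the other negative calls. Vps11 lost its call without SY518Z, TP4168 or TP4205. Vps4a, the ATPase that takes ESCRT complexes apart, was positive (0.13 ± 0.12, adjusted p = 0.0187), and its call was lost without TP4168 or TP4205. In both the Golgi tether and the retromer, 1 tested subunit was thus called and another was not.

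**Figure D3:**
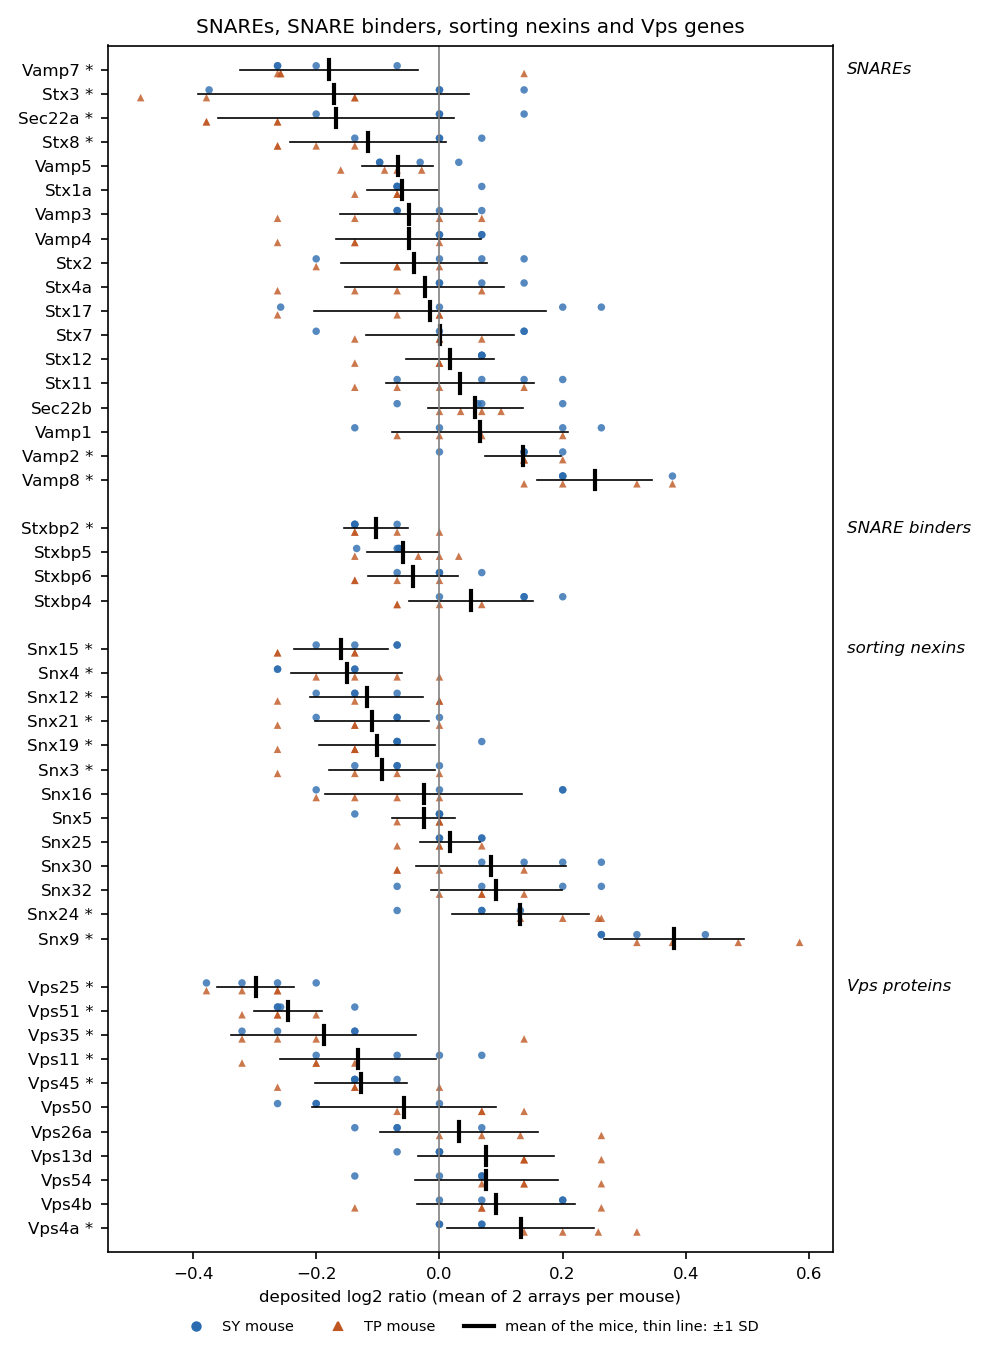
Deposited log2 ratios (x axis) of the tested SNAREs, SNARE binders, sorting nexins and Vps genes, ordered by mean within each group. Circles are SY mice, triangles TP mice, thick bars the mean of the mice, thin lines ±1 SD, and asterisks an adjusted p under 0.05. Snx9 stands apart on the positive side with all mice at 0.26 or higher, and Vps25 and Vps51 have all mice below 0.

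The symbol rule also took Sec23ip, a partner of Sec23 (-0.16 ± 0.084, adjusted p = 0.00221), and Sec14l3, a lipid-binding protein that is no part of the coat machinery (0.11 ± 0.12, adjusted p = 0.0423). The Sec14l3 call lasted only without TP4215. Of the 12 members with several probes, 7 had probe means of opposite sign. Beside Vamp5, Sec24b and Sec63, these were Rab11b, Rab6b, Sec22b and Stxbp5. Tested alone, a probe was called in Sec63 (0.22), Rab11b (-0.094), Rab6b (0.19), Sec22b (0.12) and Stxbp5 (-0.12), though the gene was not. Probes of Arf4, Rab10, Rab11a, Rab23 and Sec23a had the same sign.

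Set side by side, ER import, coat proteins and Rab GTPases had different shares of genes far from 0. Among ER import genes 4 of 11 passed 1.2-fold (36.4%), among coat proteins 1 of 9 (11.1%) and among Rab GTPases 1 of 31 (3.23%), beside 8.29% of all features. These 4 ER import genes were nearer to 0 in SY mice than in TP mice. The SY means were -0.30 (Sec61a1), -0.29 (Ssr1), 0.19 (Sec61a2) and -0.15 (Sec61b). In TP mice they were -0.52, -0.40, 0.65 and -0.40. The shares past 1.2-fold were not counted in either series alone. The medians of the groups (-0.043, -0.059 and 0.017) lay close to that of all features, and the spread of a group's median over the mice was as large. For ER import it ran from -0.26 in TP4163 to 0.14 in TP4215, for coat proteins from -0.14 to 0.069, and for Rab GTPases from -0.069 to 0.046. These counts and medians are descriptions with no test.

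Other genes of the pathway that the symbol rule does not take were read from lists of known components, whose counts stand beside 43.4% called, 25.4% negative and 18.0% positive of all features. All 5 tested subunits of the oligosaccharyltransferase, the enzyme beside the Sec61 channel that attaches sugar chains, were called negative, with a median of -0.28: Rpn2 was at -0.36 ± 0.079 (adjusted p = 9.45e-06), Krtcap2 at -0.33 ± 0.13, Ddost at -0.28 ± 0.17, Stt3a at -0.20 ± 0.12 and Dad1 at -0.20 ± 0.082. Of 7 translocon partners, 4 were called negative (57.1%), among them both subunits of the receptor of the signal recognition particle (Srpr at -0.12 ± 0.047, Srprb at -0.17 ± 0.089) and the ER chaperone Hspa5 (-0.66 ± 0.35, adjusted p = 0.000246). Of 12 genes of ER export and retrieval, 5 were negative (41.7%) and 1 positive, with the KDEL receptors on both sides: Kdelr2 was at -0.28 ± 0.094 (adjusted p = 7.35e-05) and Kdelr3 at 0.13 ± 0.093 (adjusted p = 0.0116). Of 13 clathrin and adaptor genes, 8 were negative (61.5%) and 0 positive (median -0.13), with Ap1m1 (-0.36 ± 0.078) and Ap2a2 (-0.35 ± 0.13) farthest from 0. Golgi tethers and fusion factors had 4 negative and 1 positive of 13 (38.5% called, 30.8% negative, median -0.084). Arf regulators had 1 and 1 of 8 (25% called, 12.5% negative). Both called shares were under that of all features, but the negative share of the Golgi list was above 25.4%. Rab regulators had 2 and 2 of 5, other SNAREs 1 and 0 of 2, and ESCRT genes 3 and 1 of 6. The 2 signal peptidase genes (Spcs2 at 0.15 ± 0.21, adjusted p = 0.0566) and the 4 exocyst genes (Exoc5 at -0.084 ± 0.093, adjusted p = 0.0661, the smallest of the 4) had no call by limma.

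Some markers of other liver cells were called and others were not. Of 8 tested markers of Kupffer cells and macrophages, 4 were called negative and 1 positive (62.5% called, beside 43.4% of all features; median -0.16, gene means from -0.65 to 0.28): the lysosomal glycoprotein Cd68 was at -0.65 ± 0.22 (adjusted p = 1.79e-05) and Lgals3 at -0.58 ± 0.32, while the Kupffer cell lectin Clec4f was at -0.050 ± 0.11 (adjusted p = 0.309) and Adgre1 at -0.026 ± 0.21. Of 8 stellate cell and fibroblast markers 4 were called, all negative (50%; Acta2 at -0.49 ± 0.28), of 3 bile duct markers 2 (Epcam at -0.42 ± 0.24), of 3 endothelial markers 1, and of 5 lymphocyte markers 3, 2 negative and 1 positive. The list for plasma cells and other secretory cells, which matter for genes of secretion, had 2 tested genes. Jchain was at -0.19 ± 0.17 (adjusted p = 0.0112) and Sdc1 at 0.21 ± 0.08 (adjusted p = 0.000337), and neither was checked as a marker of 1 cell type in liver. The single pancreatic acinar marker tested, Cela1, was at -0.034 ± 0.052 (adjusted p = 0.33). Of 6 hepatocyte markers, Trf was called negative (-0.41 ± 0.18) and Fgb positive (0.23 ± 0.11), and Alb was at 0.14 ± 0.30 (adjusted p = 0.21). The part of these cells in the members' ratios was not tested, and ratios give no levels against which the tissue label could be checked.

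Between the 2 identifier series, 4 of 105 members differed by limma's test of SY minus TP, beside 4.96% of 8240 features: Sec61a2, Rab30, Sec22a and Rab33b. At an unadjusted p under 0.05 there were 27 of 105 (25.7%), beside 24.5% of all features. Sec61a2 averaged 0.19 in SY and 0.65 in TP mice, a difference of -0.46 (adjusted p = 0.0123). Rab30, a Golgi Rab, averaged 0.24 in SY and -0.10 in TP mice (difference 0.34, adjusted p = 0.029). Its mean over all mice was 0.072 and was not called. The SY mice ran from 0.069 to 0.38, and the TP mice from -0.26 in TP4215 to 0 in TP4168. Sec22a averaged -0.016 in SY and -0.32 in TP mice (difference 0.31, adjusted p = 0.0361), and Rab33b, a Golgi Rab also linked to autophagy, 0.069 and -0.15 (difference 0.22, adjusted p = 0.0444). The values of SY and TP mice did not overlap in 11 of the 105 members (10.5%, beside 9.89% of all features).

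**Figure D4:**
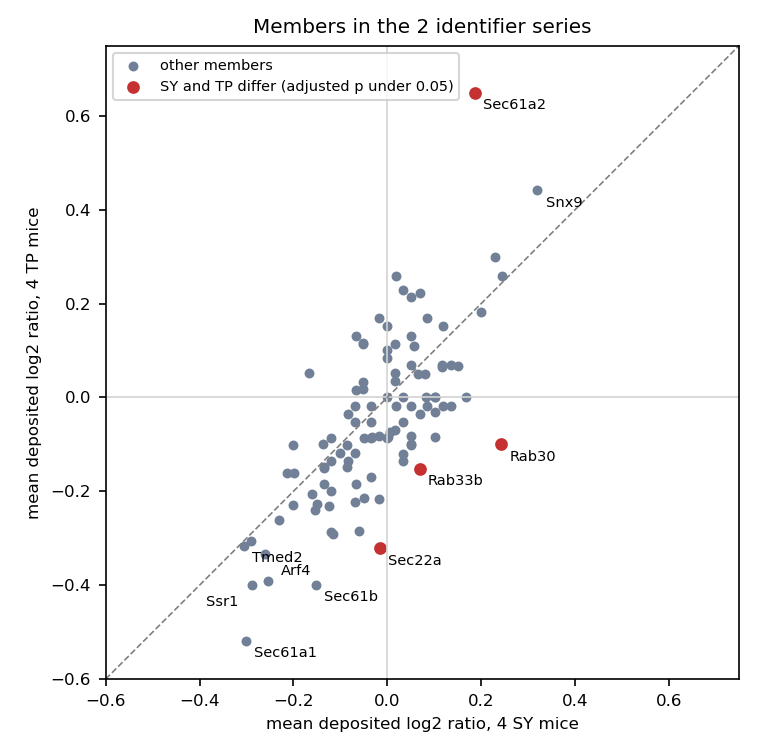
Mean deposited log2 ratio of each tested member in the 4 SY mice (x axis) and the 4 TP mice (y axis). Red points are the 4 members with an adjusted p under 0.05 for the difference, and the dashed line marks equal means. Sec61a2 lies above the line at 0.65 in TP mice, and Rab30, Rab33b and Sec22a lie below it.

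SY518Z was the single mouse with an array of each code, on which its RNA was measured once per code. For Sec61a2 its bl7 array gave 0.68, among the TP values, and its c3z array gave 0. For Sec22a the values were -0.26 and -0.14, for Rab30 0 and 0.14, and for Rab33b 0 on both. Sec61a1 gave -0.58 on the bl7 and -0.26 on the c3z array. Across the features tested, the bl7 array of SY518Z had a median correlation of 0.68 with TP mice and 0.48 with other SY mice, and the c3z array of 0.58 and 0.59. With SY518Z represented by its c3z array, 10 members differed between the series (10.9% of all features did), and with its bl7 array 0 did (0.328% of all features; 18 members at an unadjusted p under 0.05). Leaving out single mice gave 0 to 13 members, beside a share of all features in brackets. The count was 0 without SY521RL or SY524ROB+L (0.659% and 0.671%) and 1 without TP4205 or SY522ROB (0.917% and 0.718%). It was 2 without TP4215 or TP4168 (2.18% and 2.25%), 4 without TP4163 (6.89%) and 13 without SY518Z (15.3%). Apart from SY518Z, array code and identifier series cannot be told apart.

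**Figure D5:**
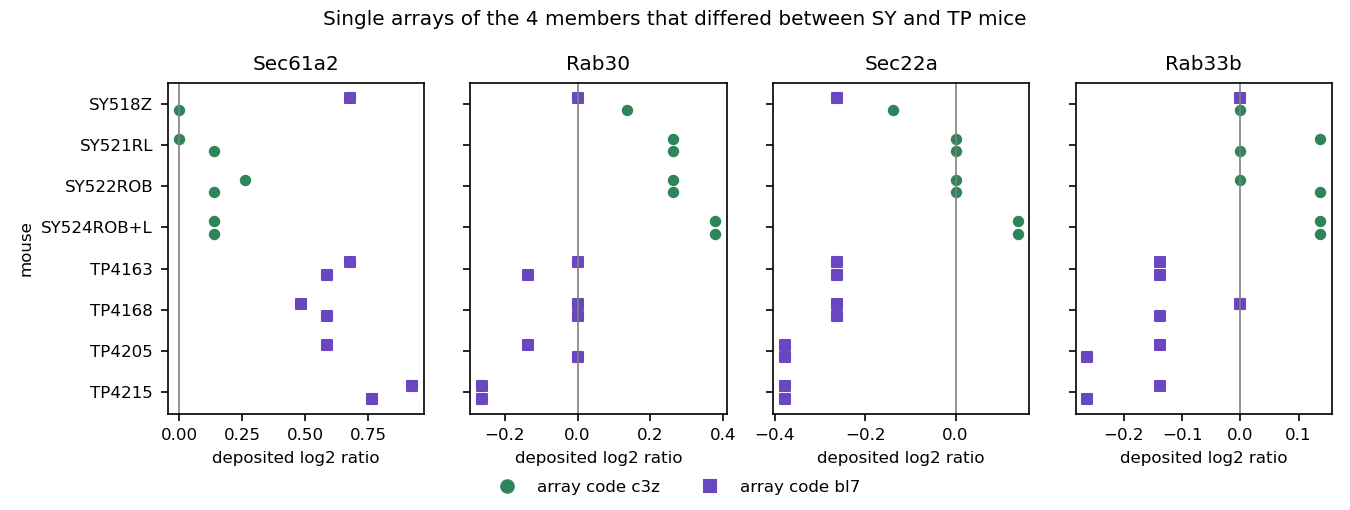
Deposited log2 ratio (x axis) on each single array of 8 mice (rows) for the 4 members that differed between SY and TP mice. Green circles are arrays of code c3z and purple squares arrays of code bl7, with the first array of a mouse drawn above the second, and 1 array of TP4205 has no Sec61a2 value. The Sec61a2 value of SY518Z is 0.68 on its bl7 array and 0 on its c3z array.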

How the data were processed

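For each of the 16 cDNA arrays a log2 value per probe, the ratio of the channels, was deposited; the sources used here do not give how it was normalized, how background was treated or why values are blank. The 144660 values all fit ratios rounded to 1 decimal (tolerance 0.01 on 10 times the ratio), 31.8% are 0, and array medians are 0, so the values were used as they stand. Symbols come from the platform annotation, updated through RefSeq (GRCm38.p6; 0 changed). Probes of a gene were averaged, then the 2 arrays of a mouse, and genes with values in at least 6 of 8 mice were tested with limma 3.58.1 (R 4.3.3; lmFit, eBayes). SY and TP mice were compared in a model with 2 groups, over features with values in at least 3 mice of each. P-values measure the spread among treated mice. The member rule, groups, lists, tests and the rule for named genes (at least the largest called and uncalled genes of each group) were chosen with earlier results of these data known. The fits were run on simulated data of independent mice, with a pass mark set at a fold larger than that of any member. That run does not test differences as small as those of the members, or the array codes. Figures were drawn with matplotlib 3.10.9. Ratios of arrays carry no count, so the number of mice limits the precision.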

Additional observations from a re-analysis of the deposited data

Results flagged for a closer look

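In 8 of the 106 tested members (7.55%) 1 mouse stood apart from the other 7. The nominal rate of about 1 in 20 makes no allowance for ratios kept to 1 decimal. The share over all features was not counted, so the 8 are not read as a result about the members. For 4 of the 8 members the mouse apart was TP4215. It had 0.48 for Rab17 (0 to 0.20 in the others), 0.32 for Sar1a (0 to 0.14), 0.19 for Tmed2 (-0.54 to -0.26) and 0.14 for Vps35 (-0.32 to -0.14). TP4163 had -0.26 for Srp14 (0 to 0.20 in the others) and -0.14 for Stx12 (0 to 0.069). SY522ROB had 0.069 for Stx1a (-0.14 to -0.069), and SY518Z had 0 for Vamp2 (0.14 to 0.20).

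A difference between the SY and TP mice was called for Sec61a2 (SY minus TP, -0.46), Rab30 (0.34), Sec22a (0.31) and Rab33b (0.22). With SY518Z represented by its bl7 array the differences were -0.38, 0.33, 0.29 and 0.22, with adjusted p of 0.15, 0.111, 0.12 and 0.11 (limma), so all 4 calls were lost there.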

How the results depend on the processing

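The count of 50 called members (37 negative, 13 positive) became 27 in SY mice alone, with 18 negative (17%, beside 15.4% of all features). It became 33 with the identifier series as a random block, with 24 negative (22.6%, beside 17.7%). With the control RNA as a mix of 7 mice it became 23, with 6 positive and 17 negative (16%, beside 12.9%). Against a minimum fold of 1.2 it became 0 in both directions. In TP mice alone 23 were negative (21.5%, beside 21.6% of all features). Settings chosen after seeing the data were scaling by the mean absolute value and the array codes. On c3z arrays alone 25 were called, 7 positive and 18 negative (17%, beside 15.9% of all features). There Sec22a had a mean of 0 and Sec24b of -0.027, in place of -0.17 and 0.14. The Rab GTPase median was -0.028 on bl7 arrays alone. On first arrays alone 0 members differed between SY and TP mice by limma, in place of 4. There 0 of all features differed either, and 16 members had an unadjusted p under 0.05. On second arrays 4 members differed (2.76% of all features). The first array of SY518Z had code bl7 and its second c3z, so this split also switched its code. The count was 0 to 13 without single mice, and 10 or 0 with SY518Z by its c3z or bl7 array. Filters on blanks, other scalings, quantile normalization, single probes and other moderation kept the count of called members within 1.5 times. Scaling by the median absolute value could change nothing, because that value was 0.14 on every array. The medians of ER import and coat genes stayed negative under every alternative run but changed in size. They ran from -0.087 (without TP4215) to -0.010 (without SY524ROB+L) for ER import. For coats they ran from -0.12 (bl7 arrays alone) to -0.027 (c3z arrays alone). No paired analysis was possible because there is a single group of treated mice, each set against the control RNA within its arrays. The absence of control-mouse spread, a dye swap and intensities, and ratios kept to 1 decimal, limit every value.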
